A study of Homo sapiens with 3 samples.

Results

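The 10 genes described here encode the 3 TGF-β ligands (TGFB1, TGFB2 and TGFB3), their 3 receptors (TGFBR1, TGFBR2 and TGFBR3), and 4 SMAD proteins (SMAD2, SMAD3, SMAD4 and SMAD7). They were chosen by gene symbol and not by their values, and all 10 were among the 26108 genes of the expression table. The mRNA of LX-2 cells, an established human hepatic stellate cell (HSC) line, was sequenced with vehicle or with recombinant human FGF19 (rhFGF19) at a lower dose of 50 ng/mL or a higher dose of 100 ng/mL, to examine how FGF19 acts on the cells that give rise to fibroblasts in liver metastases. Each condition was 1 library of the same cell line, so no comparison had a replicate check and no p-value was computed. The doses follow the sample titles, whereas another field of the sample records exchanges the doses of the rhFGF19 libraries and gives 72 h and 73 h. The series design gives 24 h of stimulation. Levels are FPKM, which counts sequenced fragments relative to transcript length and to the fragments mapped in that library.

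TGF-β is secreted in a latent form, held by its own propeptide and by binding proteins in the matrix, and must be released before it can signal. Active ligand is bound by TGFBR2, which phosphorylates TGFBR1. TGFBR1 then phosphorylates SMAD2 and SMAD3, which enter the nucleus with SMAD4, while SMAD7 is induced by the pathway and blocks TGFBR1. In the liver, TGF-β is the best known signal that turns HSCs into matrix-producing myofibroblasts.

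Fold changes were differences of log2(FPKM + 0.1), a scale that understates the change of low genes, and a gene was counted as higher or lower when it passed 2-fold, that is, an absolute log2 fold change above 1. The comparison covered the 12447 genes whose average over the 3 libraries reached 0.5 FPKM, 9 of the 10 TGF-β genes among them. TGFB3 did not reach it. A gene under 0.5 FPKM in vehicle could pass this filter only by being higher with rhFGF19, so for such genes the filter favoured a higher call. Of all tested genes, 39.4% were past 2-fold higher and 1.78% past 2-fold lower at the lower dose, and 38.5% and 1.58% at the higher dose, so a gene past 2-fold higher was common in these libraries. The middle of all tested genes lay at a log2 fold change of 0.62 at the lower dose and 0.61 at the higher dose. Fold changes followed transcript GC content (Spearman correlation of -0.77 at each dose over 12397 genes, which share the vehicle library, given as a description). Genes with under 40% GC had a median of 1.52 at the lower dose and those with 60% or more had -0.50. The treatment and the vehicle library cannot be told apart as the source of these shifts, so fold changes are also given relative to genes of similar GC content, as the remainder on the log2 scale after the GC trend was removed.

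The identity of the cells was checked on markers. Of 12 stellate cell markers, 6 had at least 1 FPKM in every library, among them VIM (439, 654 and 649 FPKM in vehicle, lower and higher dose) and PDGFRB (3.86, 5.78 and 5.25 FPKM), whereas LRAT was listed at 0 in all libraries, DES and LUM were listed at 0 in vehicle, and COL1A2 had 0.03 to 0.14 FPKM. The 6 epithelial markers summed to at most 0.34 FPKM in any library and the 6 endothelial markers to at most 0.50. The 6 hepatocyte markers summed to 11.3 to 12.55 FPKM, most of it from SERPINA1 and ALB. The 6 blood cell markers summed to 40.2 to 48.3 FPKM, nearly all from CD68, with PTPRC and CD3E looked up, found without a row and counted as 0. The part of these markers in the results was not tested. In bulk RNA, fewer cells of a type and less RNA per cell cannot be told apart.

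**Figure D1:**
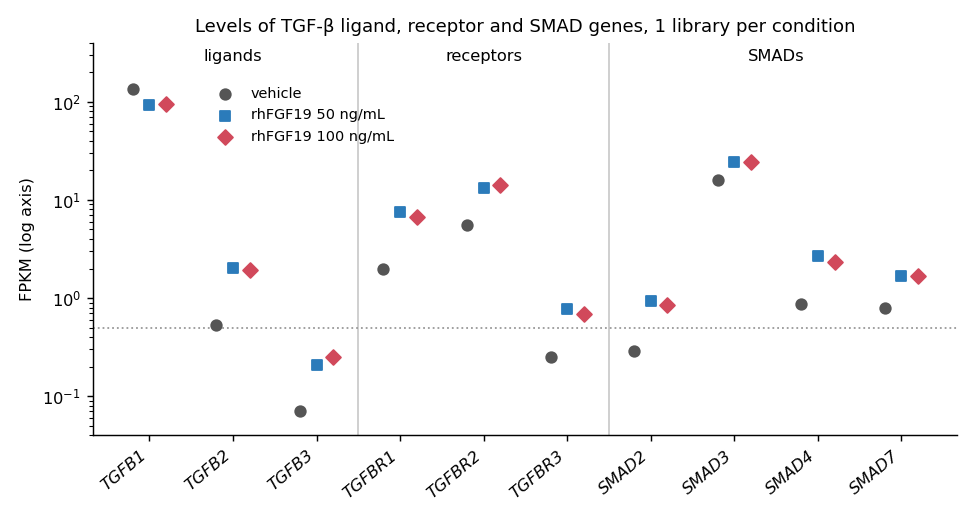
Levels of the 10 TGF-β genes in FPKM on a log axis, with 1 point per library (circle, vehicle; square, 50 ng/mL; diamond, 100 ng/mL rhFGF19) and a dotted line at 0.5 FPKM, the mean that a gene had to reach to be compared. TGFB1 lay at 134 FPKM in vehicle and near 94 FPKM in both rhFGF19 libraries, the only gene of the 10 with its highest level in vehicle in the deposited values. The other compared genes lay higher in both rhFGF19 libraries, by 1.51 to 3.81 times. TGFB3 did not reach the limit for comparison and is shown as levels only.

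Among the ligands, TGFB1, the main TGF-β of activated stellate cells, made up nearly all of the ligand mRNA, and its level was lower with rhFGF19, while TGFB2 was past 2-fold higher from a low level. The 2 genes lay apart in the base composition of their promoters as well as of their transcripts. Both promoters have a single annotated start in the RefSeq table and are shown because they belong to the ligands that lay farthest apart. The 250 bases before the start of TGFB1 (GRCh38.p14, chr19:41353923-41354172, minus strand) and of TGFB2 (chr1:218345086-218345335, plus strand) are printed 5′ to 3′ in the direction of transcription. Capitals mark the GC box GGGCGG, the core of binding sites for SP1 and related factors, and the SMAD box CAGAC, each on either strand.
TGFB1: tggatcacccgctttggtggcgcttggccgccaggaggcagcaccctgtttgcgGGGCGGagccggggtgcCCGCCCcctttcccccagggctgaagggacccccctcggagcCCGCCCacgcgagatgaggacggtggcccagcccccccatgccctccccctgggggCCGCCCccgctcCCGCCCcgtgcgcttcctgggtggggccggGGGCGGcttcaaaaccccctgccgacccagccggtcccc
TGFB2: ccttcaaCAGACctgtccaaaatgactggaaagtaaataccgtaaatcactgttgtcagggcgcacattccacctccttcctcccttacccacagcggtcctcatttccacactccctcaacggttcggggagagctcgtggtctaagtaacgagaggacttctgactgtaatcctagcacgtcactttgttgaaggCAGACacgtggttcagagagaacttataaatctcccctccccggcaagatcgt

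The TGFB1 promoter had 76.8% GC, above 92.5% of the 35116 promoters of the table, with 6 GC boxes and no SMAD box. That of TGFB2 had 50.4% GC, above 32.8% of all promoters, with 2 SMAD boxes and no GC box. Over all promoters of this length, 42.6% held at least 1 GC box and 38.0% at least 1 SMAD box. The 10 genes had 26 annotated start windows in all, of 40.8% to 84.4% GC, of which 11 held a GC box and 10 a SMAD box, shares of 42.3% and 38.5% that lay close to those of all promoters. Promoter GC content did not follow transcript GC content throughout. SMAD2 (78.4% and 84.4%), SMAD4 (68.4%) and TGFBR3 (73.6%) had GC-rich promoters with GC boxes, but transcripts of lower GC content than TGFB1. The windows of TGFBR2 had 40.8% and 58.4%, and those of TGFBR1 lay between 40.8% and 82%. The palindrome GTCTAGAC was in 0 of the 26 windows and in 0.182% of all promoters, and the AP-1 site TGACTCA, searched on both strands, was in 1 window, of SMAD3, and in 4.20% of all promoters. These matches describe letters and not bound sites.

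TGFB1 (ENSG00000105329, chromosome 19 from 41301587 to 41353922, minus strand) had 134 FPKM in vehicle, 93.8 FPKM at the lower dose and 94.0 FPKM at the higher dose. It was among the most abundant transcripts of these cells, at rank 365 of 26108 genes in vehicle and ranks 464 and 466 in the rhFGF19 libraries. Its log2 fold changes were -0.52 and -0.51, short of 2-fold, and lower than those of all but 16.3% and 15.7% of the tested genes. Genes with the same median transcript GC content, 58.0%, had a typical log2 fold change of -0.19 and -0.18, so that TGFB1 lay -0.32 and -0.33 relative to them. The sign stayed negative at both doses under each of 11 alternative settings, averaging of the rhFGF19 libraries not counted. The values ranged from -0.79 with the trend on transcript length removed to -0.041 and -0.056 with the GC content taken from its longest transcript. Among the 11, the settings with no filter and with a mean of at least 1 FPKM change only which genes enter. They repeat the value of a gene by design and are no check on its sign or size.

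TGFB2 (ENSG00000092969, chromosome 1 from 218345336 to 218444619, plus strand) had 0.53 FPKM in vehicle, 2.02 FPKM at the lower dose and 1.95 FPKM at the higher dose. Both rhFGF19 libraries thus lay above vehicle, by 3.81 and 3.68 times in the deposited values. On the log2 scale the difference was 1.75 and 1.70, above 93.9% and 93.1% of tested genes. Its transcripts have only 38.9% GC, and genes of that composition had typical values of 1.49 and 1.48. The excess of TGFB2 over them was 0.26 and 0.22 on the log2 scale. It was 0.30 and 0.26 with the GC content of the longest transcript, and 0.097 and 0.067 with GC and length trends removed. TGFB2 was positive under all 11 alternatives at both doses and past 2-fold in 5 of them at each dose, filter settings included.

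TGFB3 (ENSG00000119699, chromosome 14 from 75958097 to 75981995, minus strand) had 0.07 FPKM in vehicle, 0.21 FPKM at the lower dose and 0.25 FPKM at the higher dose. The values are written to 2 decimals, and rounding alone allows a ratio to vehicle of 2.73 to 3.31 at the lower dose and of 3.27 to 3.92 at the higher dose. With a mean of 0.177 FPKM the gene stayed under the limit for comparison, so these numbers are given as levels and not as a change.

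All 3 receptors were past 2-fold higher at both doses in the deposited values, from the serine/threonine kinases TGFBR1 and TGFBR2 to the co-receptor TGFBR3, which presents ligand and is best known for binding TGF-β2. Of all tested genes, 39.4% were past 2-fold higher at the lower dose and 38.5% at the higher dose. At the lower dose it was 90.1% of genes under 40% GC, where TGFBR1 lies. It was 57.4% of those with 45% to 50% GC, where TGFBR2 and TGFBR3 lie. Relative to genes of similar GC content none of the 3 receptors was past 2-fold, where 3.85% and 3.39% of all genes were higher, and TGFBR3 had no single direction.

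TGFBR1 (ENSG00000106799, chromosome 9 from 99104038 to 99154192, plus strand), the kinase that phosphorylates SMAD2 and SMAD3, had 2.0 FPKM in vehicle, 7.56 FPKM at the lower dose and 6.75 FPKM at the higher dose. With log2 fold changes of 1.87 and 1.71 it led the 9 tested TGF-β genes at both doses, above 96.5% and 93.2% of all tested genes. Its transcripts had the lowest median GC content of the 9, 38.3%, where the typical values were 1.5 and 1.49. The remainder was 0.37 and 0.22. TGFBR1 was positive under all 11 alternatives at both doses, and past 2-fold in 7 of them at the lower dose and in 6 at the higher dose. These counts include the filter settings, which repeat its value by design.

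TGFBR2 (ENSG00000163513, chromosome 3 from 30606601 to 30694142, plus strand), the ligand-binding kinase, had 5.61 FPKM in vehicle, 13.1 FPKM at the lower dose and 14.4 FPKM at the higher dose. It was the most abundant receptor in every library and the gene of the 9 with the highest level at the higher dose relative to the lower, at a log2 difference of 0.13. Against vehicle its log2 fold changes were 1.21 and 1.34, with 0.13 and 0.28 left relative to genes of similar GC content (47.2%). With GC and length trends both removed, the value at the lower dose turned to -0.030.

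TGFBR3 (ENSG00000069702, chromosome 1 from 91680343 to 91886151, minus strand) had 0.25 FPKM in vehicle, 0.77 FPKM at the lower dose and 0.69 FPKM at the higher dose. Rounding leaves these ratios to vehicle between 3.0 and 3.16 and between 2.69 and 2.84. The log2 fold changes of 1.31 and 1.17 became 0.070 and -0.051 relative to genes of similar GC content, so the direction at the higher dose turned once the GC trend was removed, and at the lower dose it turned, to -0.076, with the length trend removed as well.

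The SMADs did not move as a group. The receptor-activated SMAD2 and the common partner SMAD4 were past 2-fold higher at both doses in the deposited values, beside 39.4% and 38.5% of all tested genes. SMAD3, also activated by the receptor, was higher by about 1.5 times, and the inhibitory SMAD7 lay at the 2-fold limit. After the trend on median GC content was removed this order turned around, with SMAD7 and SMAD3 at the top and SMAD2 and SMAD4 near 0. With the GC content of the longest transcript, SMAD7 stayed at the top, at 1.23 and 1.22, but SMAD3 lay near 0 as well.

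SMAD2 (ENSG00000175387, chromosome 18 from 47808957 to 47931141, minus strand) had 0.29 FPKM in vehicle, 0.94 FPKM at the lower dose and 0.86 FPKM at the higher dose. Rounding leaves its ratios to vehicle between 3.17 and 3.32 and between 2.90 and 3.04. Its log2 fold changes were 1.42 and 1.3. At a median GC content of 43.1%, 0.041 and -0.056 remained relative to similar genes, a change of sign at the higher dose, and at the lower dose the sign also turned, to -0.0064, with the GC content of the longest transcript.

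SMAD4 (ENSG00000141646, chromosome 18 from 51028394 to 51085045, plus strand) had 0.88 FPKM in vehicle, 2.71 FPKM at the lower dose and 2.32 FPKM at the higher dose. It was the gene of the 9 with the lowest level at the higher dose relative to the lower, at a log2 difference of -0.22. Against vehicle the log2 fold changes were 1.52 and 1.3, and 0.055 and -0.15 relative to genes of similar GC content (40.4%), again with a turn of the sign at the higher dose.

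SMAD3 (ENSG00000166949, chromosome 15 from 67063763 to 67195169, plus strand), the SMAD most tied to the fibrotic response of stellate cells, had 16.1 FPKM in vehicle, 24.6 FPKM at the lower dose and 24.3 FPKM at the higher dose. It was the most abundant of the 4 SMADs in all 3 libraries. Log2 fold changes of 0.61 and 0.59 put it in the middle of all tested genes, at percentiles 49.8 and 49.5. Genes with its median GC content of 55.2% had typical values of only 0.074 and 0.077, and SMAD3 lay 0.54 and 0.52 above them, at percentiles 86.0 and 86.3 of such remainders. This position depended on the transcript used. Its 9 listed transcripts have a median length of 775 bases and the longest, of 6247 bases, has 50.4% GC, which left 5.8e-05 and -0.0030.

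SMAD7 (ENSG00000101665, chromosome 18 from 48919853 to 48952052, minus strand), itself a textbook target of SMAD3 and SMAD4, had 0.80 FPKM in vehicle and 1.67 FPKM in each rhFGF19 library. The deposited values differ by 2.09 times, while the log2 fold change with the added 0.1 FPKM was 0.98 at both doses and did not pass 2-fold. Relative to genes of similar GC content (53.5%), SMAD7 lay highest of the 9 genes, at 0.68 and 0.69, above 91.0% and 91.7% of all remainders. With the GC content of its longest transcript, 58.7%, the values were 1.23 and 1.22, past 2-fold. SMAD7 was positive under all 11 alternatives at both doses, the lowest being 0.096 with quantile normalization. The filter settings among the 11 repeat its value by design.

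Counted over the 9 tested genes, 6 were past 2-fold higher at each dose (TGFB2, TGFBR1, TGFBR2, TGFBR3, SMAD2 and SMAD4) and 0 were past 2-fold lower. Of all tested genes, 39.4% and 38.5% were higher and 1.78% and 1.58% lower. TGFBR3 and SMAD2, at 0.25 and 0.29 FPKM in vehicle, passed the filter only through the rhFGF19 libraries, which favoured a higher call for them. For the 9 genes the median was 1.31 at the lower dose and 1.3 at the higher dose, beside 0.62 and 0.61 for all genes. The comparisons share the vehicle library, so they are not separate evidence. With the GC trend removed, 0 of the 9 genes were past 2-fold in either direction at either dose, where 3.85% of the 12397 genes with a GC value were higher and 5.07% lower at the lower dose, and 3.39% and 4.52% at the higher dose. The median of the 9 genes was then 0.13 and 0.22, beside 0.0080 and 0.0050 for all genes.

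Ordered by median transcript GC content, from TGFBR1 through TGFB2, SMAD4, SMAD2, TGFBR3, TGFBR2, SMAD7 and SMAD3 to TGFB1, the log2 fold change at the lower dose went down at each of the 8 steps. At 100 ng/mL it did so at 7 of 8 steps, TGFBR2 lying above its place. The order was looser with the GC content of the longest transcript, with 5 and 4 of 8 steps down. The points share the same libraries and the order is a description. Of genes with 40% to 45% GC, 83.3% were past 2-fold higher at the lower dose, and of those with 55% to 60% GC, 5.87%.

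**Figure D2:**
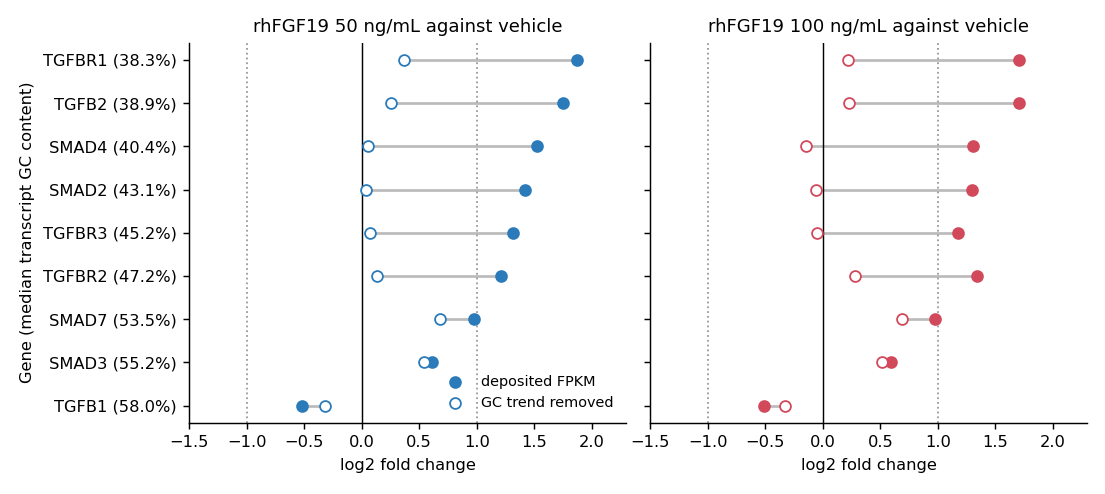
Log2 fold change of the 9 tested genes, ordered by median transcript GC content (in brackets), in the deposited values (filled) and after the GC trend was removed (open), at 50 ng/mL (left) and 100 ng/mL (right), with dotted lines at 2-fold. All open points lie within 2-fold, SMAD7 at 0.68 and 0.69 highest and TGFB1 at -0.32 and -0.33 lowest, while SMAD2, SMAD4 and TGFBR3 lie above 0 at 50 ng/mL and below 0 at 100 ng/mL.

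Between the rhFGF19 libraries, a comparison that does not use vehicle, 0 of the 9 genes were past 2-fold, where 0.852% of all tested genes were higher and 0.884% lower at the higher than at the lower dose. The log2 differences ranged from -0.22 for SMAD4 to 0.13 for TGFBR2, with a median of -0.048 beside 0 for all genes. For scale, the SD of this difference over all tested genes was 0.34, so each of the 9 genes differed by less than 1 SD. The Spearman correlation of this difference with GC content was 0.067, given as a description.

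Shares within a library do not depend on the scaling of that library, and FPKM is per length, so levels of different genes can be set side by side. Shares and ratios of the deposited values still carry the GC trend wherever the genes differ in GC content. TGFB1 made up 99.6% of the summed ligand FPKM in vehicle and 97.7% in each rhFGF19 library. The sum was 135, 96.0 and 96.2 FPKM, so the ligand total followed TGFB1. TGFB2 held 0.393% of it in vehicle, 2.10% at the lower dose and 2.03% at the higher dose. The ratio of TGFB1 to TGFB2 was 254 in vehicle against 46.4 and 48.2, a log2 difference of -2.27 and -2.22 that was -0.58 and -0.56 with the GC trend removed. The size of that remainder depended on the transcript used. With the GC content of the longest transcript, TGFB1 lay at -0.041 and -0.056 and TGFB2 at 0.30 and 0.26. TGFB1 remained by far the most abundant ligand in all 3 libraries.

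The receptors had the opposite course in the deposited values, with a sum of 7.86 FPKM in vehicle, 21.4 FPKM at the lower dose and 21.8 FPKM at the higher dose. TGFBR2 led in each library, with 71.4% of the sum in vehicle, 61.1% at the lower dose and 65.9% at the higher dose. TGFBR1 took 25.4%, 35.3% and 31.0%. The ratio of TGFBR2 to TGFBR1 was thus 2.81, 1.73 and 2.13, log2 differences from vehicle of -0.66 and -0.37 that became -0.23 and 0.062 with the GC trend removed, with a change of sign at the higher dose. The level of TGFB1 was 24.0 times that of TGFBR2 in vehicle and 7.16 and 6.55 times with rhFGF19, log2 differences of -1.73 and -1.86 against -0.46 and -0.61 with the GC trend removed. Here too the size depended on the transcript used. With the GC content of the longest transcript, TGFB1 lay at -0.041 and -0.056 and TGFBR2 at 0.25 and 0.40.

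Among the 4 SMADs, SMAD3 made up 89.1% of the sum in vehicle, 82.2% at the lower dose and 83.4% at the higher dose. SMAD4, which SMAD3 needs as a partner, took 4.88%, 9.06% and 7.96%. SMAD3 exceeded SMAD4 by 18.3, 9.08 and 10.5 times and SMAD2 by 55.4, 26.2 and 28.3 times. SMAD3 was thus the leading SMAD transcript in every library. Its ratio to its partners was lower with rhFGF19 in the deposited values, by log2 differences of -0.91 and -0.71 for SMAD4 and -0.80 and -0.71 for SMAD2. It was higher once the trend on median GC content was removed, by 0.48 and 0.66 for SMAD4 and 0.50 and 0.57 for SMAD2. This turn depended on the transcript used. With the GC content of the longest transcript, SMAD3 lay at 5.8e-05 and -0.0030. On that measure SMAD4 lay at 0.13 and -0.072 and SMAD2 at -0.0064 and -0.11. SMAD7 held 4.43%, 5.58% and 5.73%.

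**Figure D3:**
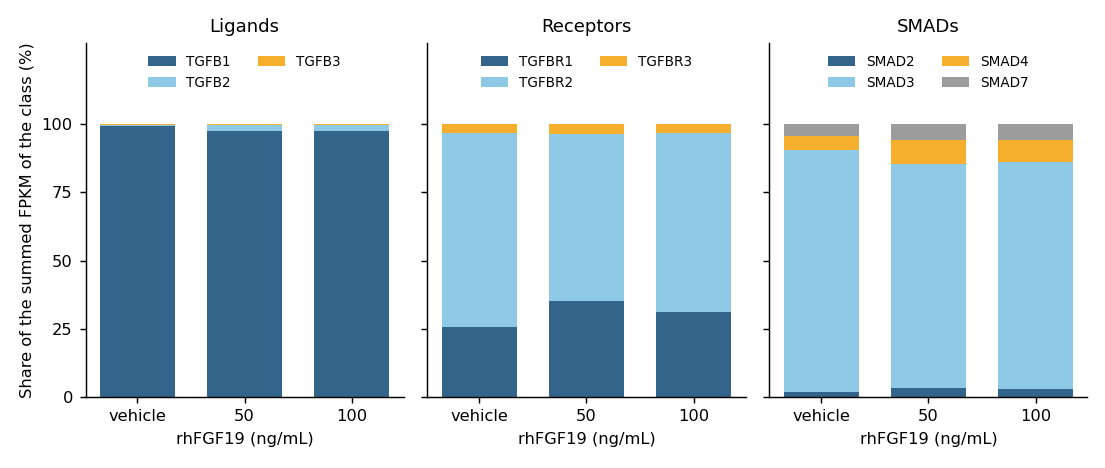
Share of the summed FPKM of each class in percent, as stacked bars for the 3 libraries, for ligands (left), receptors (middle) and SMADs (right). TGFB1 fills 99.6%, 97.7% and 97.7% of the ligand bars, TGFBR2 is the largest receptor share throughout at 71.4%, 61.1% and 65.9%, and SMAD3 the largest SMAD share at 89.1%, 82.2% and 83.4%.

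Other genes of the pathway were followed in 8 lists of 144 genes, none of them among the 10 genes. Of the 144, 130 were in the table and 105 averaged 0.5 FPKM or more. At 50 ng/mL, 53 of the 105 (50.5%) were past 2-fold higher and at the higher dose 48 (45.7%), with 0 lower at either dose, beside the 39.4% and 38.5% of all tested genes. Their median was 1.01 and 0.94 on the log2 scale. After the GC trend was removed, 3 of 104 genes (2.88%) were past 2-fold higher at the lower dose and 2 (1.92%) at the higher dose, with 0 lower and medians of 0.12 and 0.11. The pathway annotation that the deposited table carries (KEGG, TGF-beta signaling) was added after the values were seen. Of its 69 other genes 49 were tested, and 26 were past 2-fold higher at each dose in the deposited values (53.1%). With the GC trend removed, 4 of 48 were higher (8.33%) and 1 lower (2.08%) at each dose, beside 3.85% and 5.07% of all genes at the lower dose and 3.39% and 4.52% at the higher.

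Of 16 tested genes for latency and activation of TGF-β, 5 (31.25%) were past 2-fold higher at the lower dose and 4 (25%) at the higher dose, beside 39.4% and 38.5% of all genes. Their median of 0.35 and 0.38 became 0.19 and 0.18 with the GC trend removed, beside 0.0080 and 0.0050 for all genes. The integrin chains ITGB1 (18.3, 59.3 and 59.8 FPKM in vehicle, lower and higher dose) and ITGAV (1.29, 3.73 and 4.12 FPKM), which together can release TGF-β from its latent complex, and thrombospondin 1 (THBS1), another activator (13.5, 34.2 and 31.9 FPKM), were past 2-fold higher at both doses. Relative to genes of similar GC content these values were 0.24 and 0.26 for ITGB1, -0.046 and 0.11 for ITGAV, and 0.67 and 0.59 for THBS1. FURIN, the protease that cleaves the TGF-β precursor, was at 113, 75.95 and 76.2 FPKM, with log2 fold changes of -0.57 at both doses, or -0.15 and -0.16 relative to genes of similar GC content. The binding proteins LTBP3 (13.6, 10.8 and 11.3 FPKM) and LTBP4 (18.6, 15.2 and 14.7 FPKM) were also nominally lower, but lay above 0 relative to genes of similar GC content. Urokinase (PLAU), the most abundant of the list, had 115, 121 and 124 FPKM. With the GC trend removed, 1 of the 16 genes was past 2-fold higher at the lower dose and 0 at the higher. The shares of all genes were then 3.85% and 3.39%.

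Of 10 co-receptors, inhibitors and decoys, 5 were past 2-fold higher at the lower dose and 4 at the higher dose, beside 39.4% and 38.5% of all genes. With the GC trend removed, 0 of 9 were past 2-fold at either dose. Of all genes, 3.85% were then higher and 5.07% lower at the lower dose, and 3.39% and 4.52% at the higher dose. The activin-binding follistatin FST had 0.92, 2.71 and 3.15 FPKM, and its relative FSTL3 22.9, 15.8 and 15.4 FPKM. Relative to genes of similar GC content FST lay at 0.35 and 0.58 and FSTL3 at -0.021 and -0.071. The BMP antagonist GREM1 had 17.6 FPKM in vehicle against 48.9 and 47.15 FPKM, log2 fold changes of 1.47 and 1.41, with no GC value for its transcripts. TWSG1, a modulator of BMP binding, had 6.10, 17.5 and 15.6 FPKM, with 0.058 and -0.087 left after the GC trend was removed. The co-receptor ENG had 55.4, 46.8 and 45.1 FPKM, log2 fold changes of -0.24 and -0.30 that turned to 0.13 and 0.065. CHRD, another BMP antagonist, was at 0.92, 0.50 and 0.89 FPKM, and its log2 difference from vehicle of -0.77 at the lower dose was -0.043 at the higher dose, or -0.26 and 0.44 with the GC trend removed.

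Of 14 activin and BMP ligands found in the table, 4 reached a mean of 0.5 FPKM. Beside the calls in this paragraph, 39.4% of all tested genes were past 2-fold higher at the lower dose and 38.5% at the higher dose. The activin subunits INHBA (1.23, 2.86 and 3.47 FPKM) and INHBB (0.94, 2.77 and 2.89 FPKM) were past 2-fold higher at both doses, and INHBB lay farthest above genes of similar GC content of all 104 list genes with a GC value, by 1.55 and 1.60 on the log2 scale, against 0.19 and 0.47 for INHBA. GDF11 had 3.93, 5.36 and 5.18 FPKM and GDF15 0.68, 0.50 and 0.70 FPKM, neither past 2-fold, with remainders of -0.59 and -0.62 for GDF11, whose sign turned, and of 0.019 and 0.42 for GDF15, whose sign turned at the lower dose. Of 6 tested activin and BMP receptors, ACVR1 (1.62, 4.01 and 3.96 FPKM), BMPR1A (0.34, 1.12 and 1.18 FPKM) and BMPR2 (1.33, 3.74 and 3.94 FPKM) were past 2-fold higher at both doses, with remainders of 0.29 and 0.29 for ACVR1, 0.031 and 0.12 for BMPR1A and -0.084 and 2.6e-05 for BMPR2. The other 3 were not, ACVR1B at log2 fold changes of 0.56 and 0.60, ACVR2B at 0.14 and 0.23, and ACVRL1 at -0.75 at both doses. Their remainders were 0.29 and 0.33, -0.53 and -0.43, and -0.38 and -0.40, so that the sign turned for ACVR2B. BMPR1A, at 0.34 FPKM in vehicle, passed the filter only through the rhFGF19 libraries. SMAD5, a SMAD of the BMP branch and the only 1 of 4 other SMADs that could be compared, had 0.98, 2.96 and 2.88 FPKM and was past 2-fold higher, with 0.15 and 0.13 left relative to genes of similar GC content.

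**Figure D4:**
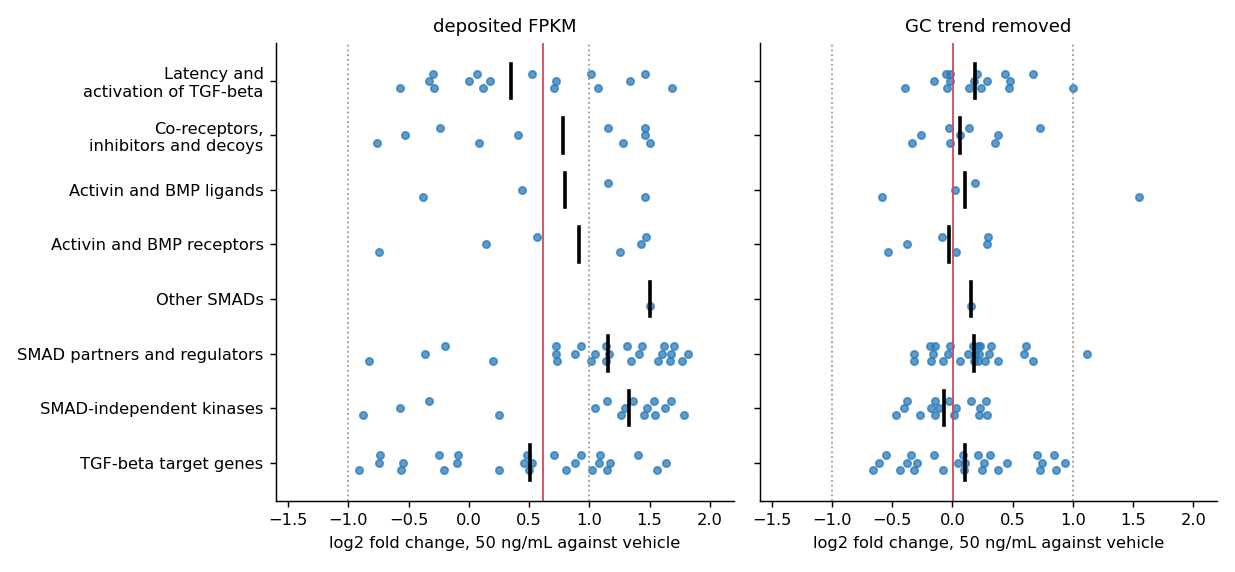
Log2 fold change at 50 ng/mL against vehicle of the tested genes of 8 pathway lists, 1 point per gene, in the deposited values (left) and with the GC trend removed (right), with the median of each list (black bar), of all tested genes (red line) and 2-fold (dotted lines). In the left panel 53 of 105 points lie past 2-fold higher and in the right panel 3 of 104, beside 39.4% and 3.85% of all genes. No point lies past 2-fold lower in either panel, beside 1.78% and 5.07% of all genes.

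Of 26 SMAD partners and regulators, 17 were past 2-fold higher at the lower dose and 15 at the higher dose, and of 16 kinases and adaptors that act without SMADs, 12 were at each dose, beside 39.4% and 38.5% of all genes. With the GC trend removed, 1 of 26 and 0 of 16 genes of these lists were past 2-fold higher at each dose. The shares of all genes were then 3.85% and 3.39%. The coactivator SNW1 (3.57, 12.9 and 11.25 FPKM), ZFYVE9, which brings SMAD2 and SMAD3 to the receptor (0.77, 2.68 and 2.70 FPKM), and the SMAD-binding ubiquitin ligase TRIM33 (0.46, 1.72 and 1.59 FPKM) had the highest averaged fold changes of the former, with remainders of 0.61 and 0.44, 0.32 and 0.35, and 0.21 and 0.12. STUB1, a ubiquitin ligase, had 78.8, 44.2 and 42.1 FPKM, the deubiquitinase USP11 90.3, 70.05 and 68.3 FPKM, and PPP1R15A, a phosphatase subunit, 158, 138 and 137 FPKM, none of them past 2-fold and all negative with and without the GC trend. The stress kinases MAPK8 (0.73, 2.77 and 2.96 FPKM) and MAPK9 (0.94, 3.12 and 3.21 FPKM) and the adaptor TAB2 (2.27, 7.47 and 7.04 FPKM) led the other list, with remainders of 0.28 and 0.39, 0.29 and 0.35, and 0.22 and 0.15. TAB1 had 12.4, 9.84 and 8.76 FPKM, the polarity protein PARD6A 7.96, 4.27 and 4.60 FPKM and the phosphatase scaffold PPP2R1A 99.1, 66.5 and 68.2 FPKM, with remainders of 0.015 and -0.17, -0.40 and -0.31, and -0.38 and -0.35. RHOA, the most abundant, was at 421, 500.05 and 496 FPKM, with a positive log2 fold change of 0.25 and 0.24 that turned to -0.14 and -0.15. The gene past 2-fold with the GC trend removed was the SMAD repressor SKI (6.87, 11.4 and 11.15 FPKM), at log2 fold changes of 0.72 and 0.69 in the deposited values and of 1.12 and 1.07 relative to genes of similar GC content. SKI and the matrix protein LTBP2 (1.08, 1.83 and 1.82 FPKM), at 1.0 and 0.98 by the same measure, were named after their values were seen.

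Of 26 tested TGF-β target genes, 8 (30.8%) were past 2-fold higher at the lower dose and 7 (26.9%) at the higher dose, beside 39.4% and 38.5% of all genes. Their medians of 0.51 and 0.53 became 0.10 and 0.16 with the GC trend removed. By that measure 0 of the 26 were past 2-fold at either dose. Of all genes, 3.85% were then higher and 5.07% lower at the lower dose, and 3.39% and 4.52% at the higher dose. TAGLN, an actin-binding protein of contractile cells, had 223, 118 and 126 FPKM, with -0.92 and -0.82, or -0.66 and -0.59 relative to similar genes. TIMP1, the matrix protease inhibitor, had 308, 184 and 193 FPKM, and the cell cycle inhibitor CDKN1A 146, 87.3 and 89.8 FPKM. All 3 were short of 2-fold and negative with and without the GC trend. The transcription factors KLF10 (3.12, 8.43 and 8.07 FPKM) and ID2 (0.17, 0.74 and 0.69 FPKM) and the hyaluronan synthase HAS2 (0.66, 2.15 and 1.92 FPKM) were past 2-fold higher at both doses in the deposited values. Relative to genes of similar GC content, KLF10 lay at 0.24 and 0.20, ID2 at 0.72 and 0.65, and HAS2 at 0.048 and -0.097, the last with a change of sign between the doses. ID2, like the SMAD-binding TRIM33, passed the filter only through the rhFGF19 libraries.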

How the data were processed

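The mRNA of 3 LX-2 samples (vehicle, 50 and 100 ng/mL rhFGF19) was sequenced by the authors, who aligned the reads with HISAT2. The deposited FPKM values cover 26108 genes, to 2 decimals. The submitters' processing notes name HISAT2 2.0, StringTie 1.3.0, Bowtie 0.12.2 and the builds hg19 and mm8 without their roles. The table's coordinates overlapped GRCh38 for 99.9% of 25531 identifiers found in GENCODE 29. The program behind the FPKM values, the annotation and the depth are not given in the sources used here, so no interval or count test was possible.

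Each rhFGF19 library was compared with vehicle, and with the other, on log2(FPKM + 0.1) where a gene averaged 0.5 FPKM or more, and calls were an absolute log2 fold change above 1. GC content and length were medians over each gene's listed transcripts (GENCODE 29). Trends were removed by local regression with a span of 0.3 over all tested genes. The 10 genes, the pathway lists and the settings were chosen with earlier results of these data known. From each list, the 3 highest and 3 lowest genes by averaged fold change and the most abundant were named, except 1 gene that is not reported here. The effect of 12 other settings is given at the end. A further one, the GC content of the longest transcript, was chosen after seeing the data. Promoters came from RefSeq (GRCh38.p14). The procedure was tested on simulated data with either no GC trend or a straight-line one. The GC trend of the real data is not a straight line, so the simulation is no check on its removal here. The changes were imposed only on genes above the vehicle levels of TGFB2, TGFBR3, SMAD2, SMAD4 and SMAD7, so changes at such low levels were not covered. Python 3.11.15, NumPy 2.4.6, pandas 2.3.3, SciPy 1.17.1, statsmodels 0.14.6 and Matplotlib 3.10.9 were used.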

Additional observations from a re-analysis of the deposited data

How the results depend on the processing

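No paired analysis was possible because each condition had 1 library. The counts of TGF-β genes past 2-fold stayed within 1.5 times the reported counts, and their medians within 0.34, with a pseudocount of 0.01, no filter, a mean of at least 1 FPKM, rescaling to TPM, the median ratio set to 0 and averaged rhFGF19 libraries. The limit of 0.34 is the SD of the log2 difference between the rhFGF19 libraries over all tested genes. The 6 genes past 2-fold higher at the lower dose became 2 with a pseudocount of 1, 1 each with quantile normalization, the length trend removed or the GC trend of the longest transcript removed, and 0 with the GC trend or GC and length trends removed. At the higher dose the 6 became 2 with a pseudocount of 1, 1 with the GC trend of the longest transcript removed and 0 under the other 4 of these settings. In that order (pseudocount of 1, quantile normalization, length, GC, GC and length, GC of the longest transcript), the median of the 9 genes at the lower dose was 0.59, 0.70, 0.45, 0.13, 0.097 and 0.13. At the higher dose it was 0.57, 0.57, 0.38, 0.22, 0.067 and -0.0030, the last with a change of sign. For all tested genes the medians in the same order were 0.41, 0.11, 0.045, 0.0080, 5.6e-05 and 0.012 at the lower dose. They were 0.40, 0.087, 0.044, 0.0050, -0.0030 and 0.0077 at the higher dose. The share of all genes past 2-fold was computed only for the deposited values and with the GC trend removed. Under the other settings the counts of TGF-β and pathway genes have no such share beside them. The pathway genes past 2-fold higher numbered 23, 15, 9, 3, 1 and 3 at the lower dose and 25, 11, 13, 2, 1 and 4 at the higher. Those past 2-fold lower, 0 in the deposited values, were 3 and 2 at the respective doses with the median ratio set to 0, 4 and 2 with quantile normalization, 11 and 9 with the length trend removed, and 7 at each dose past 1.5-fold. Signs turned for TGFBR2 at the lower dose with GC and length trends removed (-0.030). TGFBR3 turned at the lower dose with GC and length trends removed (-0.076), and at the higher dose with the GC trend (-0.051), GC and length trends (-0.20) and the GC trend of the longest transcript removed (-0.078). SMAD2 turned at the lower dose with the last of these (-0.0064) and at the higher dose with all 3 (-0.056, -0.081 and -0.11). SMAD4 turned at the higher dose with the same 3 (-0.15, -0.092 and -0.072), and SMAD3, which was not past 2-fold, at the higher dose with the GC trend of the longest transcript removed (-0.0030). The causes were not tested. The depth is unknown, and values under 1 FPKM, such as those of TGFB3, TGFBR3 and SMAD2 in vehicle, are the least certain.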
